A study of Sus scrofa with 48 samples.

Results

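The genes described here encode the signalling chains of the T cell receptor complex, its coreceptor CD4, the surface receptors CD2, CD5 and CD6, and the kinases that pass the signal on. A list of 10 genes, CD3D, CD3E, CD3G, CD247, CD2, CD4, CD5, CD6, LCK and ZAP70, was looked up by symbol among the 22924 gene identifiers of a count table from pig hypothalamus and ileum. Of these, 8 were found. No identifier could be paired with CD3G or ZAP70 by symbol, and both are left out below. The genes were listed by name, with earlier results of these data known, and no threshold on a measured level was used to pick them.

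The chains of the T cell receptor that bind antigen have no signalling motif of their own. They reach the cell surface with the CD3 delta, epsilon and gamma chains and with the zeta chain, the product of CD247, and the kinase LCK, held at the coreceptors CD4 and CD8, phosphorylates the motifs in those chains. In the ileum T cells lie within the epithelium, in the lamina propria and between the follicles of the Peyer's patches, and the long ileal Peyer's patch of young pigs is made up mostly of B cells.

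The study sequenced polyA RNA of hypothalamus and ileum from weaned piglets of low or high growth, classed by average daily gain up to day 7 or up to day 39. Each tissue has 4 groups of 6 libraries, which are day 7 low growth, day 7 high growth, day 39 low growth and day 39 high growth. No further treatment, breed, genotype, litter, sex, pen, batch or age in days is given in the labels, so day and age cannot be told apart. The labels name separate samples and do not say how animals were shared between tissues, so p-values measure the spread between these samples, part of which may be technical.

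Libraries held between 14168747 and 21122814 estimated counts in hypothalamus and between 14356689 and 23157291 in ileum. Levels are given as CPM, estimated counts scaled to a common library size with TMM factors within a tissue, and they are not divided by transcript length, so a level is compared between libraries and not between genes. In whole tissue, fewer T cells and less RNA per T cell cannot be told apart. The tissue labels were checked against defining genes: the summed level of 10 neuron and glia genes was between 48.5 and 120.1 CPM in every ileum library and between 5411 and 162100 CPM in every hypothalamus library. The 5411 CPM came from day 39 low growth, where the median was 27875 CPM. In that group the sum of 11 epithelial genes reached 312.1 CPM (median 10.3). Its sum of 14 macrophage and dendritic cell genes fell to 205.5 CPM (median 1065). Hypothalamus levels and tests below include these values. Of the ileum libraries, replicate 1 of the day 7 high growth group stood apart before any test. Its summed level of 12 B cell genes was 57.3 CPM, against 1032 to 3610 CPM in the other 23 libraries, with MS4A1 at 0.653 CPM, and its summed level of 9 smooth muscle genes was 12260 CPM, the highest of all. Replicate 5 of the same group had the lowest summed level of 14 macrophage and dendritic cell genes, 509.7 CPM. The lowest values of the other ileum groups were 937.6 CPM in day 7 low growth, 1142 CPM in day 39 low growth and 1283 CPM in day 39 high growth. The day 7 low growth library with a B cell sum of 1032 CPM, beside a group median of 3188 CPM, was kept. The differences of single members between days and between growth classes on day 7, and most correlations between levels in ileum, are therefore given with and without replicates 1 and 5 of day 7 high growth. These are called the 2 libraries that stood apart.

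In the Sscrofa11.1 build, as a RefSeq gene table gives it, CD3E (ENSSSCG00000040140) spans 45619730 to 45633972 of chromosome 9, and CD3D (ENSSSCG00000015093) spans 45640475 to 45644153 of the same chromosome. CD247 (ENSSSCG00000006309) lies on chromosome 4 from 83494266 to 83586887, and CD2 (ENSSSCG00000006736) lies on chromosome 4 from 103963802 to 103976971. CD5 (ENSSSCG00000013115) and CD6 (ENSSSCG00000013111) both lie on chromosome 2, CD5 from 10648973 to 10673479 and CD6 from 10739560 to 10785548. CD4 (ENSSSCG00000000687) spans 63892129 to 63918547 of chromosome 5, and LCK (ENSSSCG00000003608) spans 88719886 to 88745922 of chromosome 6. All 8 genes passed the filter on low counts in both tissues.

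CD3D, CD3E and CD6 were higher in ileum on day 39 than on day 7, averaged over both growth classes. The mean CD3E level was 38.8 ± 13.99 CPM (SD, n = 12) on day 7 and 81.9 ± 20.8 CPM (SD, n = 12) on day 39. The other 5 genes, CD5, CD4, CD2, CD247 and LCK, had positive differences that did not pass the test. By edgeR's quasi-likelihood test with Benjamini-Hochberg adjustment over 15256 genes and a threshold of 0.05, 3 of the 8 genes were called higher and 0 lower, against 0.308% of all genes called higher and 0.131% called lower. The log2 difference was above 0 in 8 of 8, with a median of 0.74 beside -0.02 over all genes tested.

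The CD3 chains carry the signal of the receptor, and both that could be measured rose. On day 7 CD3D was at 13.8, 17.8 and 33.6 CPM in low growth (lowest, median and highest of 6 libraries) and at 13.1, 21.7 and 31.1 CPM in high growth. On day 39 it was at 32.1, 40.1 and 64.1 CPM in low growth and at 28.8, 36.4 and 38.4 CPM in high growth. The ranges of the 2 days touched: 9 of the 12 day 39 libraries lay above every day 7 library. The log2 difference of CD3D was 0.85 ± 0.16 (SE) with an edgeR adjusted p of 0.00778, and 0.89 without the 2 libraries that stood apart.

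CD3E showed the same order of days. On day 7 it was at 24.6, 35.1 and 66.1 CPM in low growth and at 19.5, 41.0 and 61.8 CPM in high growth. On day 39 it was at 60.4, 78.8 and 129.3 CPM in low growth and at 58.7, 81.5 and 95.9 CPM in high growth. On day 7 the highest library of each growth class, replicate 3 of low growth and replicate 4 of high growth, reached the bottom of the day 39 range, and 8 of the 12 day 39 libraries lay above all of day 7. The log2 difference was 1.08 ± 0.18 (SE) with an edgeR adjusted p of 0.00321, and 0.99 without the 2 libraries that stood apart.

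CD247, the zeta chain, is also known as a signalling partner of Fc receptors in natural killer cells. Its level in ileum on day 7 was 85.7, 160.0 and 179.1 CPM in low growth and 24.2, 130.8 and 197.8 CPM in high growth. On day 39 it was 150.8, 171.9 and 188.3 CPM in low growth and 140.1, 192.1 and 293.7 CPM in high growth. The day ranges overlapped over most of their width, and 3 of 12 day 39 libraries exceeded all of day 7. Its log2 difference was 0.45 ± 0.21 (SE) with an edgeR adjusted p of 0.547, and 0.27 without the 2 day 7 high growth libraries that stood apart.

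LCK, the kinase that phosphorylates the CD3 and zeta chains, had a day difference nearer to that of CD247 than to that of CD3E. In the correlations given below, LCK was nearer to CD247 within day 7 but not within day 39. Its day 7 levels were 64.1, 85.2 and 102.2 CPM in low growth and 18.8, 74.0 and 107.5 CPM in high growth, and its day 39 levels were 88.9, 96.8 and 122.5 CPM in low growth and 86.1, 101.1 and 128.1 CPM in high growth. The lowest value came from replicate 1 of day 7 high growth, as for CD247. The log2 difference between days was 0.44 ± 0.17 (SE) with an edgeR adjusted p of 0.424, and 0.30 without the 2 libraries.

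CD4, the coreceptor of helper T cells, was at 19.4, 32.03 and 39.5 CPM in day 7 low growth and at 12.1, 26.5 and 45.8 CPM in day 7 high growth. On day 39 it was at 39.5, 42.1 and 50.6 CPM in low growth and at 35.4, 51.9 and 53.7 CPM in high growth. In low growth the 2 days did not overlap, although only just, since the highest day 7 library had 39.48 CPM and the lowest day 39 library 39.49 CPM. How many of all genes separate the days in low growth was not counted, so this is a description. The log2 difference over both classes, 0.63 ± 0.17 (SE), did not pass edgeR's test (adjusted p = 0.113), and was 0.47 without the 2 libraries that stood apart (adjusted p = 0.112). It fell below the threshold with DESeq2 (adjusted p = 0.0314) and without replicate 3 of day 7 high growth (0.0307), the lowest of all alternatives, which reached up to 0.207.

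CD2, an adhesion receptor of T and natural killer cells that part of the pig's gamma delta T cells lack, varied widely among libraries of a group. Its day 7 levels were 30.8, 50.03 and 111.6 CPM in low growth and 26.6, 60.1 and 111.4 CPM in high growth, and its day 39 levels were 58.1, 69.7 and 179.2 CPM in low growth and 62.9, 85.6 and 100.8 CPM in high growth. Only 1 of the 12 day 39 libraries exceeded all of day 7. The log2 difference was 0.56 ± 0.23 (SE) with an edgeR adjusted p of 0.451, and 0.49 without the 2 libraries that stood apart.

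CD5 and CD6 are related surface receptors that tune the strength of the receptor's signal. CD6 was at 7.68, 9.93 and 21.8 CPM in day 7 low growth and at 1.72, 8.79 and 13.7 CPM in day 7 high growth. On day 39 it was at 17.2, 21.6 and 25.1 CPM in low growth and at 17.6, 21.2 and 28.5 CPM in high growth. In high growth the 2 days did not overlap, and in low growth replicate 3 of day 7, at 21.8 CPM, reached into the day 39 range. The share of all genes whose ranges separate the days in high growth was not counted, so this separation is a description. The log2 difference of CD6 was 1.16 ± 0.22 (SE) with an edgeR adjusted p of 0.0101, and without the 2 libraries that stood apart it was 0.97 with an adjusted p of 0.00319. Over all alternatives this p lay between 7.57e-05 and 0.0268.

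CD5 was at 11.3, 19.5 and 34.02 CPM in day 7 low growth and at 7.19, 16.5 and 25.8 CPM in day 7 high growth. On day 39 it was at 24.6, 29.7 and 39.0 CPM in low growth and at 23.2, 34.6 and 58.4 CPM in high growth. All 12 day 39 libraries exceeded the day 7 median, and 4 exceeded every day 7 library. The log2 difference was 0.88 ± 0.21 (SE) and missed edgeR's threshold (adjusted p = 0.0587), and was 0.70 without the 2 libraries that stood apart (adjusted p = 0.0683). DESeq2 (adjusted p = 0.00636) and limma voom (0.0371) called CD5 higher, and over all alternatives the adjusted p reached up to 0.121. Leaving out 1 library at a time moved it past the threshold in 4 of 24 fits, those without replicate 3 of day 7 low growth, replicates 3 or 4 of day 7 high growth, or replicate 5 of day 39 high growth.

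**Figure D1:**
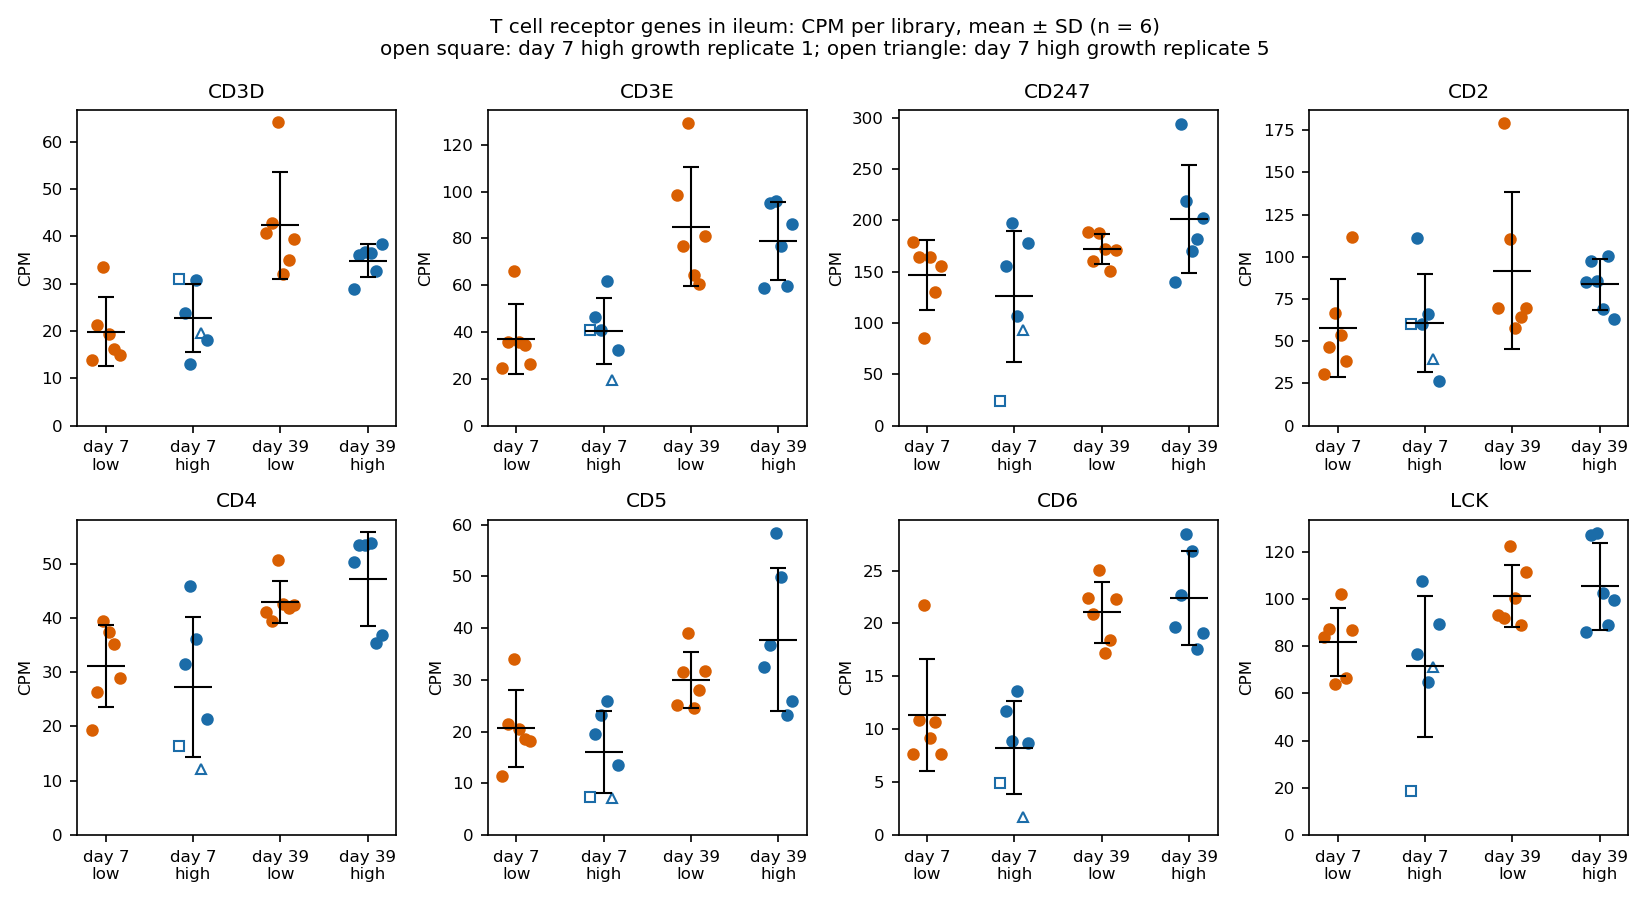
CPM of the 8 genes in the 24 ileum libraries by day and growth class, with points for libraries and black lines for mean ± SD (n = 6). CD3D, CD3E and CD6 sit higher on day 39 in both growth classes, and the open symbols mark day 7 high growth replicates 1 and 5, which give the lowest CD247 and LCK values (24.2 and 18.8 CPM) and the lowest CD6 value (1.72 CPM).

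The contrast between days was also made within each growth class. Classes were set by gain up to day 7 or up to day 39, so a class need not mean the same on both days. In low growth CD3D alone was called by edgeR, with a log2 difference of 1.09 ± 0.22 (SE) and an adjusted p of 0.0454, against 0.111% of all genes called higher and 0.0197% called lower. CD3E had 1.19 ± 0.26 (SE) with an adjusted p of 0.0574. The CD3D call rested on a narrow margin: it held in 4 of the 24 fits that left out 1 ileum library and in 4 of 8 other alternatives, with adjusted p between 0.0018 and 0.172. In high growth 0 of the 8 genes were called by edgeR, against 0.0131% of all genes. There, 7 of 8 were higher at an unadjusted edgeR p under 0.05, the exception being CD2. This count includes the 2 day 7 high growth libraries that stood apart and is not given without them. Without them the day 7 high growth mean rose from 125.8 to 159.4 CPM for CD247 and from 71.5 to 84.7 CPM for LCK. It fell only for CD3D, from 22.8 to 21.5 CPM. Of all 15256 genes tested, 417 were higher at that cut and 992 lower. DESeq2 called CD5 and CD6. The largest log2 differences in high growth were 1.43 ± 0.32 (SE) for CD6 and 1.23 ± 0.30 (SE) for CD5, with adjusted p of 0.105 and 0.181, and 1.05 and 0.88 without the 2 libraries that stood apart. The difference between growth classes in the day effect, tested as an interaction, passed for none of the 8 genes by edgeR (0% of all genes called, all 8 adjusted p 0.987), with 0 of 8 at an unadjusted p under 0.05 and 0 by DESeq2 or limma voom.

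The ratio to CD3E within a library shows how the other genes moved against it. This ratio is of CPM not divided by length, so its size cannot be read as a ratio of molecules, and no test was made of it. CD3D over CD3E had a median of 0.551 on day 7 and 0.490 on day 39, and CD6 over CD3E had medians of 0.263 and 0.274. The medians went from 1.38 to 0.902 for CD2, from 0.707 to 0.559 for CD4 and from 0.488 to 0.390 for CD5. CD247 over CD3E had a median of 4.59 on day 7 (range 0.590 to 7.29) and of 2.31 on day 39 (range 1.45 to 3.08). LCK over CD3E had a median of 2.52 on day 7 (range 0.458 to 3.66) and of 1.34 on day 39 (range 0.945 to 1.56). The ratios of CD247 and LCK were thus spread widely on day 7 and narrowly on day 39, with the lowest in replicate 1 of high growth, replicate 3 of low growth and replicate 4 of high growth. Without the 2 libraries that stood apart both day 7 medians kept their values, and the lowest ratios were 1.30 for CD247 and 0.970 for LCK.

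**Figure D2:**
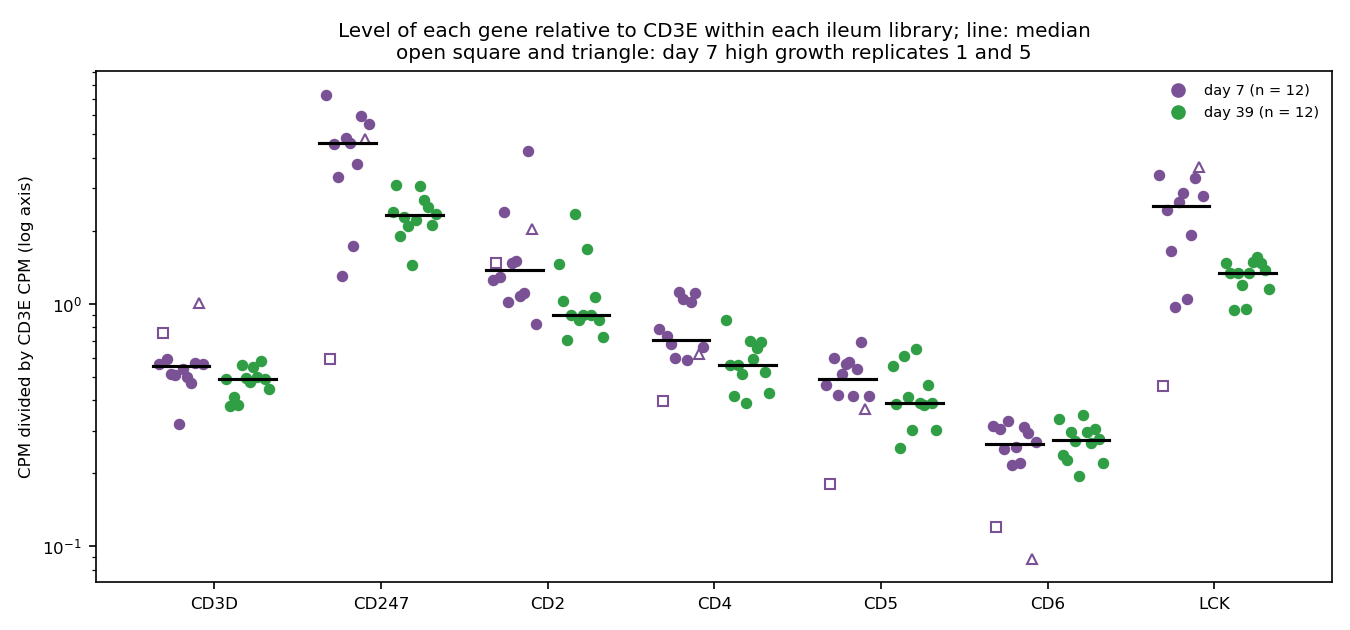
CPM of each gene divided by CD3E CPM in the same ileum library on a log axis, with day 7 in purple and day 39 in green (n = 12 each) and a line at each median. The CD247 ratio has a median of 4.59 on day 7 and 2.31 on day 39 and the LCK ratio 2.52 and 1.34. The medians of CD2, CD4, CD5 and CD3D are also lower on day 39, and that of CD6 is 0.263 and 0.274.

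Low and high growth were compared within each day, which is the study's own question. On day 7 in ileum 0 of the 8 genes were called by edgeR, against 0% of all genes, and 0 of 8 had an unadjusted p under 0.05. DESeq2 and limma voom called none of the 8 either. The log2 differences, low minus high, ran from -0.20 ± 0.22 (SE) for CD3D to 0.45 ± 0.32 (SE) for CD6, with adjusted p between 0.882 and 0.992. Among the genes with positive values, CD5 stood at 0.36 ± 0.30 (SE), CD247 at 0.22 ± 0.30 (SE), CD4 at 0.19 ± 0.24 (SE) and LCK at 0.19 ± 0.24 (SE).

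Part of these day 7 differences came with the 2 libraries that stood apart. Without them the CD6 difference was 0.09 and the CD5 difference 0.03. The differences of CD247, CD4 and LCK changed sign, to -0.11, -0.10 and -0.04, and those of CD3D, CD3E and CD2 were -0.10, -0.28 and -0.17. With all libraries the low and high growth ranges overlapped for all 8 genes, and the 2 lowest CD4, CD5 and CD6 values of the day were those of replicates 1 and 5 of high growth.

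On day 39 in ileum 0 of the 8 genes were called by edgeR, against 0% of all genes, with 0 of 8 at an unadjusted p under 0.05 and 0 by DESeq2 or limma voom. The log2 differences, low minus high, ran from -0.33 ± 0.29 (SE) for CD5 to 0.28 ± 0.22 (SE) for CD3D, and every adjusted p was 0.999. The groups overlapped for all 8 genes. CD3D was nearest to a split, with 4 of 6 low growth libraries above the highest high growth library. These results do not show that the growth classes were alike: a standard error of 0.22 to 0.32 leaves room for differences larger than those printed, in either direction.

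**Figure D3:**
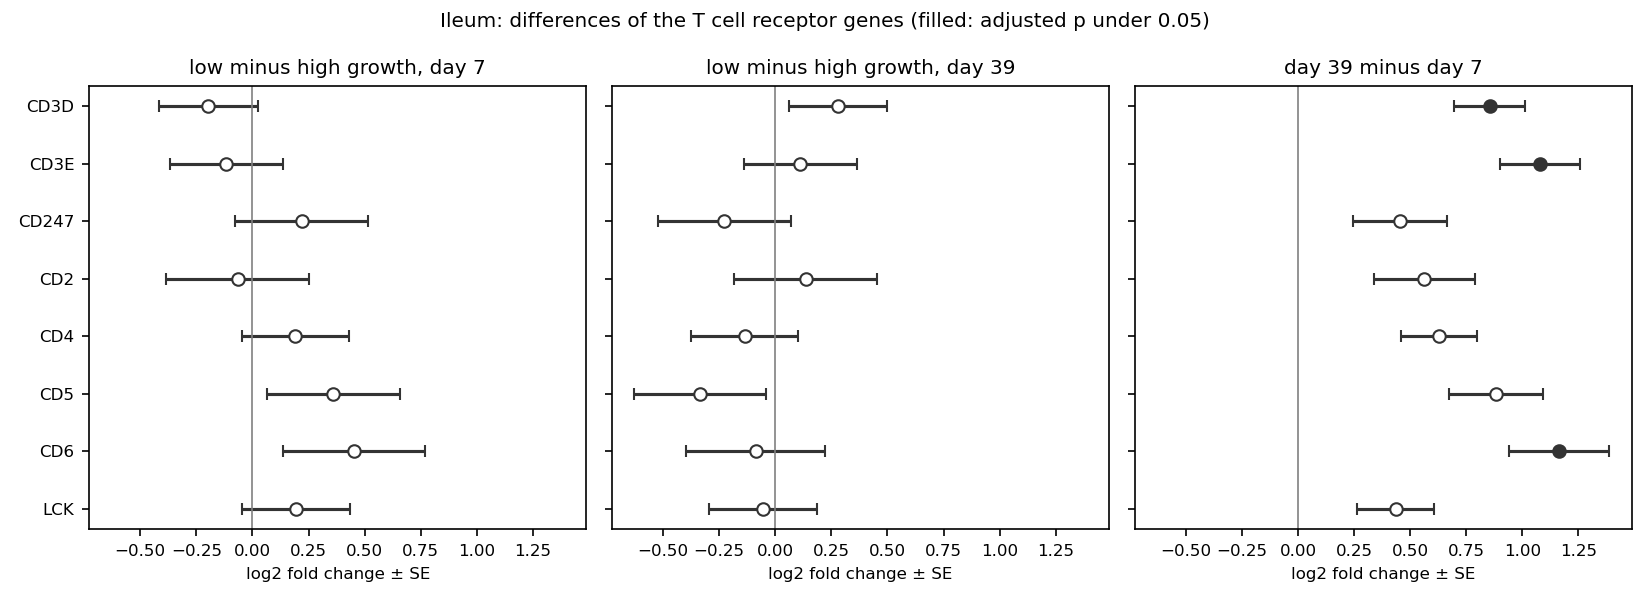
Log2 fold change ± SE of each gene in 3 ileum contrasts, with filled circles for an edgeR adjusted p under 0.05. Both growth contrasts (low minus high) scatter around 0, from -0.33 to 0.45, and all 8 values of day 39 minus day 7 lie above 0, with CD3D, CD3E and CD6 filled.

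Other genes of the receptor's pathway were looked at as 4 lists: coreceptors and costimulatory receptors, kinases and phosphatases, adaptors, and downstream enzymes and factors. Of 43 genes listed, 39 had values and passed the filter in ileum. Between day 7 and day 39, 3 of the 39 were called higher and 0 lower, beside 0.308% and 0.131% of all genes, and their median log2 difference was 0.24 beside -0.02. The 3 were CD8A and CD8B, the chains of the coreceptor of cytotoxic T cells, and SKAP1, an adaptor that links the receptor to integrins. CD8A rose from 12.1 ± 3.8 CPM (SD, n = 12) to 31.2 ± 5.7 CPM (SD, n = 12), a log2 difference of 1.38 ± 0.15 (SE) with an edgeR adjusted p of 2.56e-05, and its 2 days overlapped in the range from 21.0 to 22.3 CPM. It was also called in low growth (1.27 ± 0.21, SE, adjusted p = 0.0168) and in high growth (1.48 ± 0.21, SE, adjusted p = 0.00417).

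CD8B rose by 1.24 ± 0.28 (SE) on the log2 scale with an edgeR adjusted p of 0.0345, and SKAP1 by 0.66 ± 0.14 (SE) with an adjusted p of 0.0263. Both calls were narrow: leaving out 1 ileum library at a time, CD8B was called in 11 of 24 fits and SKAP1 in 15 of 24, with adjusted p of at most 0.0795 and 0.0619. None of the 10 kinases and phosphatases and none of the 12 downstream genes was called by edgeR. All 11 adaptors had a positive difference and 5 of the 12 downstream genes a negative one, from -0.24 to 0.26. In the growth contrasts none of the 39 genes was called in ileum on either day by edgeR, by DESeq2 or by limma voom.

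Values of other cell types were set beside the day result. Of 10 cytotoxic and natural killer genes tested, 9 had a log2 difference above 0, with a median of 0.73 beside 0.74 for the 8 members, and 1, CCL5, was called higher. Their summed level, over 11 genes with values, was 100.6 to 464.8 CPM on day 7 and 286.0 to 822.9 CPM on day 39. Of 12 B cell genes 0 were called between days by edgeR, with 0 of 12 at an unadjusted p under 0.05 and log2 differences from -0.16 to 0.23, and their summed level was 57.3 to 3294 CPM on day 7 and 2335 to 3610 CPM on day 39. None of 10 pan-leukocyte genes was called (median log2 difference 0.14), nor any of 11 epithelial genes (median 0.13) or 9 smooth muscle genes (median -0.10). Among macrophage and dendritic cell genes, CD163, a scavenger receptor of resident macrophages, fell by 1.11 ± 0.23 (SE) on the log2 scale (edgeR adjusted p = 0.0193, and up to 0.0546 over the alternatives), and the other 12 tested were not called. HBB and ALAS2, a globin and an enzyme of haem synthesis in red cell precursors, rose by 1.99 ± 0.32 (SE) and 2.05 ± 0.39 (SE), and the summed level of 5 erythroid genes lay between 12.97 and 54.5 CPM on day 7 and between 39.2 and 251.1 CPM on day 39. The part of these cell types in the day difference of CD3D, CD3E and CD6 was not tested.

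Across the 24 ileum libraries the 8 genes did not all vary together. Over 28 pairs, Pearson's r of log2 CPM ran from 0.051 for CD3D with CD247 to 0.955 for CD247 with LCK. The pairs among CD3D, CD3E, CD4, CD5 and CD6 had r between 0.505 and 0.938. The p-values given here are permutation p adjusted by Benjamini-Hochberg over the 28 pairs, and these relations were chosen after values were seen. Permutations, here and in the relations below, ran over all 24 libraries of a tissue without regard to day or growth class. A day difference that both levels share therefore enters these p-values, and the r within each day is given beside them.

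CD3D and CD3E had an r of 0.895 and Spearman's rho of 0.907 (n = 24, adjusted permutation p = 3.5e-05 for both, from the smallest p that 100000 permutations can give, 1e-05). The r was 0.917 without the 2 libraries farthest from the median, 0.686 within day 7, 0.822 within day 39 and 0.942 without day 7 high growth replicates 1 and 5. CD4 and CD5 had an r of 0.938 and rho of 0.888 (n = 24, adjusted permutation p = 3.5e-05 for both), with 0.887 without the 2 farthest, which were day 7 high growth replicates 1 and 5, 0.922 within day 7 and 0.840 within day 39. The pairs of CD3D with CD4, CD5 and CD6 had lower values inside each day than over all 24 libraries. CD3D with CD4 had an r of -0.014 within day 7 and 0.103 within day 39. CD3D with CD5 had 0.143 and 0.220, and CD3D with CD6 had 0.269 and 0.462. Without day 7 high growth replicates 1 and 5 their pooled r was 0.626, 0.7425 and 0.919. The remaining pairs were CD3E with CD4, CD5 and CD6, and CD6 with CD4 and CD5. Their r lay between 0.660 and 0.885 within day 7 and between 0.366 and 0.894 within day 39.

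CD247 and LCK had an r of 0.955 and rho of 0.821 (n = 24, adjusted permutation p = 3.5e-05 for both), with 0.825 without the 2 farthest, 0.967 within day 7, 0.739 within day 39 and 0.848 without day 7 high growth replicates 1 and 5. CD3E and LCK had an r of 0.373 and rho of 0.593 (n = 24, adjusted permutation p = 0.0800 and 0.00688). This r was 0.392 without the 2 farthest, -0.206 within day 7, 0.7435 within day 39 and 0.473 without day 7 high growth replicates 1 and 5. CD247 and CD3D had an r of 0.051 (adjusted permutation p = 0.824) and rho of 0.286 (adjusted permutation p = 0.188, n = 24), with 0.160 without the 2 farthest and 0.110 without day 7 high growth replicates 1 and 5. Within day 7 this r was -0.672 and within day 39 0.171, so no one sign describes both days.

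CD247 and LCK were also set against the mean of 12 B cell genes, in a family of 32 relations of a member with a list. CD247 had an r of 0.894 (adjusted permutation p = 0.00048) but a rho of 0.373 (adjusted permutation p = 0.138, n = 24), and r was 0.456 without the 2 farthest libraries and 0.632 without replicates 1 and 5 of day 7 high growth. Within day 7 it was 0.955 and within day 39 0.454. For LCK the r was 0.886 (adjusted permutation p = 0.00309) and rho 0.298 (adjusted permutation p = 0.252, n = 24), with 0.437 without the 2 farthest, 0.415 without replicates 1 and 5 of day 7 high growth, 0.957 within day 7 and 0.429 within day 39. The high pooled values therefore rest on few libraries, replicate 1 of day 7 high growth above all, which was lowest in CD247, LCK and B cell genes together while its CD3D level, 31.1 CPM, was the highest of its group.

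CD3E was set against the mean of the cytotoxic and natural killer genes in the same family. Its r was 0.866 and rho 0.836 (n = 24, adjusted permutation p = 0.00032 and 0.00016), with 0.798 without the 2 farthest, 0.675 within day 7 and 0.619 within day 39, and 0.866 without day 7 high growth replicates 1 and 5. CD247 had with the same list an r of 0.243 and rho of 0.482 (n = 24, adjusted permutation p = 0.354 and 0.0511), with 0.643 without the 2 farthest, 0.509 without replicates 1 and 5 of day 7 high growth, -0.367 within day 7 and 0.861 within day 39. LCK had an r of 0.201 and rho of 0.515 (n = 24, adjusted permutation p = 0.423 and 0.0406), with 0.561 without the 2 farthest, 0.552 without replicates 1 and 5, -0.479 within day 7 and 0.583 within day 39. On day 39, then, all 3 genes had positive values with this list. With the mean of epithelial genes CD3E had an r of 0.570 and rho of 0.587 (n = 24, adjusted permutation p = 0.00945 and 0.0152), with 0.357 without the 2 farthest, 0.644 without replicates 1 and 5, 0.628 within day 7 and 0.621 within day 39. With the B cell mean, CD3E had an r of 0.055 and rho of -0.324 (n = 24, adjusted permutation p = 0.845 and 0.205), with 0.095 without the 2 farthest, -0.362 without replicates 1 and 5 of day 7 high growth, -0.224 within day 7 and -0.111 within day 39.

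**Figure D4:**
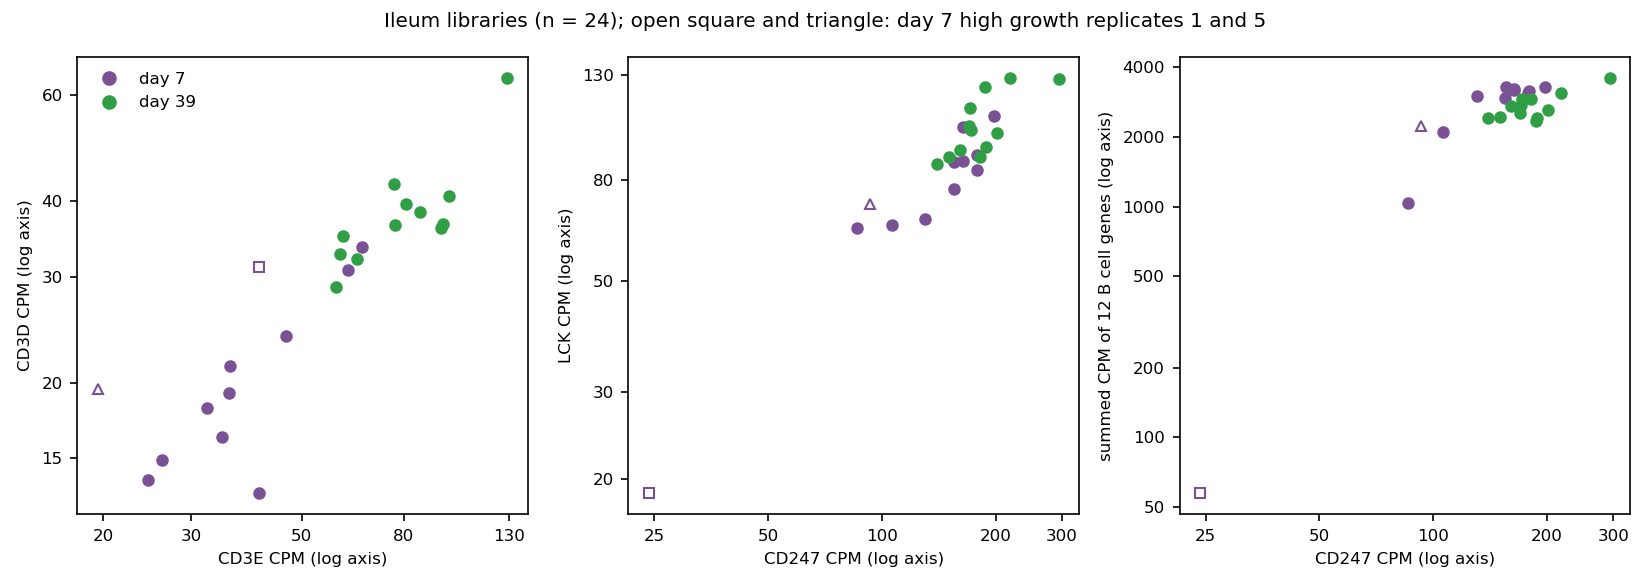
Pairs of levels in the 24 ileum libraries on log axes: CD3D against CD3E, LCK against CD247, and the summed CPM of 12 B cell genes against CD247, with day 7 in purple and day 39 in green. Day 7 high growth replicate 1 (open square) lies at the bottom of CD247, LCK and B cell genes (24.2, 18.8 and 57.3 CPM), and in the middle of the CD3D and CD3E range.

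Of genes outside the list, those whose pattern over the 24 ileum libraries was most like the mean of the 8 standardised log2 levels were PVRIG (r = 0.915), EPHB6 (0.900), PDCD1 (0.891), TNFRSF4 (0.886), CST7 (0.857), IL12RB1 (0.846), SKAP1 (0.836), CXCR3 (0.834), SEMA4D (0.828) and LAG3 (0.826). PVRIG, PDCD1 and LAG3 are inhibitory receptors of T cells, TNFRSF4 is the costimulatory receptor OX40, and CXCR3 is a chemokine receptor of effector T cells. Without the 2 libraries that stood apart, the r of the genes named here lay between 0.748 for IL12RB1 and 0.8955 for PVRIG. Over all 24 libraries their Spearman's rho lay between 0.810 and 0.908. These correlations share libraries and depth with the members and are a description. Taken gene by gene, a choice made after the values were seen, the first non-member was CCR9 for CD3D, SKAP1 for CD3E, EPHB6 for CD6, PVRIG for CD4 and for CD5, SEPTIN1 for CD247, SIT1 for LCK and CXCL9 for CD2. These ranks are from all 24 libraries. LCK with SIT1 had an r of 0.930 but a rho of 0.577, and an r of 0.748 without the 2 libraries that stood apart. For the other pairs that r lay between 0.834 and 0.929.

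Hypothalamus, which holds few T cells, gave a reference level. CD3D averaged 29.98 ± 11.8 CPM (SD, n = 24) in ileum and 0.922 ± 0.291 CPM (SD, n = 24) in hypothalamus, a ratio of 32.5. The ratios of CD3E, CD4, CD5, CD6 and LCK lay between 25.2 for CD4 and 185 for LCK, and no hypothalamus library reached the lowest ileum library for any of these 6 genes. Estimated counts behind these low levels were few: CD3E, CD5, CD6 and LCK had libraries with 3 counts or fewer, from 2 of 24 for CD3E to 7 of 24 for CD6. Levels are scaled within each tissue, so the ratios between tissues carry no test. The share of all genes whose ranges separate the 2 tissues was not counted, so the separation of these genes is a description.

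CD247 and CD2 did not share this pattern. CD247 was at 38.0 ± 17.9 CPM (SD, n = 24) in hypothalamus, with a range of 10.1 to 63.7 CPM and at least 168.5 estimated counts in every library, and its ratio of ileum to hypothalamus was 4.24. CD2 was at 12.8 ± 9.0 CPM (SD, n = 24), with a range of 2.43 to 37.5 CPM, and its ratio was 5.73. Both tissues overlapped for these 2 genes, CD247 through day 7 high growth replicate 1 of ileum alone. The counts cannot show which transcripts these reads came from.

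**Figure D5:**
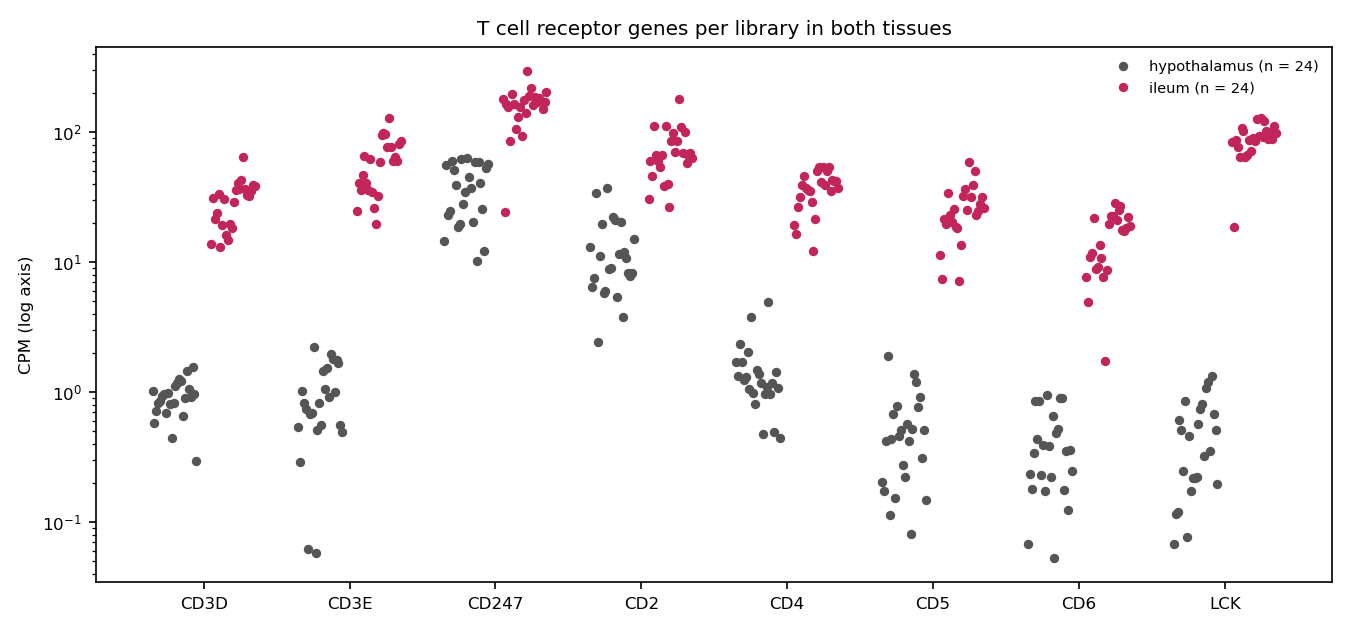
CPM of the 8 genes in each hypothalamus library (grey) and ileum library (red) on a log axis, n = 24 per tissue. CD247 and CD2 average 38.0 and 12.8 CPM in hypothalamus, where the other 6 genes average between 0.420 and 1.48 CPM.

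Within hypothalamus the levels of both genes were set against other genes. Among the genes most like CD247 over 24 libraries were PNCK (r = 0.966), CORO2A (0.959) and NDN (0.953), and CD2 was most like UNC93B1 (0.915) and FCGR1A (0.852), an Fc receptor of myeloid cells. Against single brain genes, in a family of 22 relations chosen after values were seen, CD247 had with the synaptic vesicle gene SYT1 an r of 0.714 and rho of 0.703 (n = 24, adjusted permutation p = 0.00132 and 0.00139), with 0.760 without the 2 farthest libraries, 0.786 within day 7 and 0.675 within day 39. With SNAP25, another synaptic gene, CD247 had an r of 0.362 and rho of 0.391 (n = 24, adjusted permutation p = 0.230 and 0.127), with 0.537 without the 2 farthest, 0.566 within day 7 and 0.185 within day 39. With RBFOX3, a nuclear protein of neurons, CD247 had an r of 0.533 and rho of 0.617 (n = 24, adjusted permutation p = 0.0285 and 0.00669), with 0.482 without the 2 farthest, 0.692 within day 7 and 0.427 within day 39. CD2 had similar values with RBFOX3, an r of 0.537 and rho of 0.603 (n = 24, adjusted permutation p = 0.0285 and 0.00669), with 0.678 without the 2 farthest, 0.444 within day 7 and 0.694 within day 39. The other neuron genes did not share this. CD2 had an r of -0.21 with SNAP25, -0.02 with SYT1, -0.06 with STMN2 and 0.23 with GAD1. Their adjusted permutation p lay between 0.54 and 0.924. Within day 7 these r were between -0.451 and -0.265, and within day 39 between 0.203 and 0.700. With MBP, a myelin gene, CD247 had an r of -0.168 and rho of -0.594 (n = 24, adjusted permutation p = 0.54 and 0.00721), with -0.675 without the 2 farthest, -0.941 within day 7 and 0.141 within day 39. CD2 had with the mean of macrophage and dendritic cell genes an r of 0.614 and rho of 0.726 (n = 24, adjusted permutation p = 0.00645 and 0.00088), with 0.667 without the 2 farthest, 0.816 within day 7 and 0.634 within day 39.

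Between day 7 and day 39 in hypothalamus 0 of the 8 genes were called by edgeR, against 0.0315% of 15865 genes. LCK and CD3E had an unadjusted edgeR p under 0.05, as had 1527 of all 15865 genes, and DESeq2 and limma voom called none of the 8. LCK was at 0.306 ± 0.247 CPM (SD, n = 12) on day 7 and 0.667 ± 0.380 CPM (SD, n = 12) on day 39, a log2 difference of 1.10 ± 0.40 (SE) with an edgeR adjusted p of 0.429, and CD3E differed by 0.84 ± 0.39 (SE) with an adjusted p of 0.507. The other 6 differences lay between -0.33 for CD4 and 0.39 for CD3D. Low and high growth in hypothalamus gave 0 of 8 called on day 7 and on day 39, against 0% of all genes each, with 0 of 8 at an unadjusted p under 0.05 and 0 by DESeq2 or limma voom. The growth effect did not differ between days for any of the 8 by the interaction test (0% of all genes called, edgeR adjusted p between 0.787 and 0.999).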

How the data were processed

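Per the labels' protocols, polyA RNA, whose integrity number averaged 7.8, was sequenced as paired reads. Per the submitters' processing notes, Trim Galore, kallisto, DESeq2 and the build Sscrofa11.1 were used. The sources used here give no versions, annotation release or strand setting, so antisense reads cannot be told apart. The authors deposited estimated counts per gene, 53.0% of them not whole, and a table of normalized signal, which is the estimated count times 1 factor per library and served as an alternative only, with 1 cell that was not a number left out. Of 22924 identifiers, 14894 got a symbol from RefSeq.

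Estimated counts were rounded, which moved none by over 0.5. In each tissue, edgeR 4.0.16 (R 4.3.3) fitted 24 libraries in 4 groups after filterByExpr (minimum count 10, minimum total 15) and TMM scaling. Quasi-likelihood p-values were adjusted over all genes tested, with a threshold of 0.05. Alternatives were DESeq2 1.42.0, limma 3.58.1 (voom, and trend on log2(value + 1) of the deposited normalized signal), RLE factors, library totals, no filter, only the groups compared, each library left out, and ileum day 7 high growth replicates 1 and 5 left out together. Precision is limited by counting error at low counts and by 6 libraries per group. Likeness used log2(CPM + 0.5). The analysis was tested on simulated data.

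Members and lists were chosen with earlier results of these data known. Named are all members, and of each other list up to 4 called genes of lowest p per comparison or the 1 of lowest p as not passing. Of genes most like the members, 10 with a symbol are named. Some genes that this rule would name are not reported here.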

Additional observations from a re-analysis of the deposited data

Results flagged for a closer look

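A library was singled out where its gap to the nearest library of its group of 6 was, as a share of the group's range, above Dixon's 95% critical value. Of 64 combinations of gene and group, 11 met this, and chance gives about 1 in 20 groups. In ileum, replicate 3 of day 7 low growth was high in CD3E (66.1 CPM, the next 35.9) and in CD6 (21.8 CPM, the next 10.9). Replicate 3 of day 39 low growth was high in CD3D (64.1 CPM, the next 42.7) and in CD4 (50.6 CPM, the next 42.5). In hypothalamus, replicate 2 of day 7 high growth was high in CD2 (34.2 CPM, the next 11.12), in CD5 (1.91 CPM, the next 0.513) and in LCK (0.613 CPM, the next 0.247). CD6 was high in replicate 5 of the same group (0.953 CPM, the next 0.432). CD2 was high in replicate 2 of day 39 low growth (20.3 CPM, the next 8.26), and CD4 in replicate 3 of that group (4.97 CPM, the next 1.42). CD3D was low in replicate 6 of day 39 high growth (0.296 CPM, the next 1.06). The CD4 value of 4.97 CPM stands for 83.3 estimated counts, and the hypothalamus values of CD3D, CD5, CD6 and LCK for 28 or fewer.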

How the results depend on the processing

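The count of members called between days in ileum was 3 over both growth classes, 5 with DESeq2, and 3 to 5 with each library left out. CD3D, CD3E and CD6 were called in all 24 of those fits and in the 7 other alternatives of that comparison. In low growth the count was 1 and became 2 with DESeq2, with limma voom and without day 7 high growth replicates 1 and 5, and 0 with library totals, without the filter, with the deposited normalized signal and with only the groups compared. It was 0 to 2 with each library left out. In high growth the count was 0 and became 2 with DESeq2, and was 0 with each library left out. The cause of these changes was not tested. In the 7 other comparisons of growth, day and interaction in both tissues it was 0 under every alternative run. Of 2490 member values recomputed, 2450 kept their side of the threshold, among them 90 never called that had the other sign, 16 became called, 24 lost their call and 0 changed direction while called. Over all genes, calls between days in ileum were 67, or 58 to 176 over the other alternatives (highest with DESeq2) and 45 to 101 with each library left out. In low growth they were 20 (12 to 70 over the other alternatives, 1 to 37 with each library left out), in high growth 2 (1 to 46, and 1 to 6), and in hypothalamus 5 (5 to 33, and 5 to 14). No paired analysis was possible because the replicate numbers follow the order of the samples and the labels give no litter, pen or animal shared between groups. Depth limits the hypothalamus values of CD3E, CD5, CD6 and LCK most.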

Other observations

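Genes of intestinal T cells outside the receptor's pathway also differed between days in ileum. ITGAE, the integrin chain that holds T cells in the epithelium, rose from 29.6 ± 6.7 CPM (SD, n = 12) to 56.8 ± 13.98 CPM (SD, n = 12), a log2 difference of 0.97 ± 0.12 (SE) with an edgeR adjusted p of 0.000222, and all 12 day 39 libraries lay above the highest day 7 library, at 40.4 CPM. The share of all genes with such a separation of the days was not counted. CCR9, the chemokine receptor that directs T cells to the small intestine, rose by 0.82 ± 0.16 (SE, adjusted p = 0.0149), and CCL5, a chemokine of cytotoxic T cells, by 1.47 ± 0.27 (SE, adjusted p = 0.00866). These were 2 of 11 homing genes and 1 of 10 cytotoxic and natural killer genes tested, against 0.308% of all genes called higher. None of 12 T cell transcription factors was called, with TBX21 of lowest p at 0.93 ± 0.27 (SE, edgeR adjusted p = 0.166).

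GZMA, a granzyme, was called in low growth only, with a log2 difference between days of 1.94 ± 0.37 (SE) and an edgeR adjusted p of 0.0295, and the test of the difference between growth classes did not pass (1.75, adjusted p = 0.987). Leaving out 1 ileum library at a time kept this call in 16 of 24 fits. GNLY, a cytotoxic granule protein, differed on day 7 by -1.61 ± 0.35 (SE), low minus high, with an edgeR adjusted p of 0.507 and a DESeq2 adjusted p of 0.0195, the lowest over the alternatives. In hypothalamus 4 erythroid genes rose between days, among them HBB by 3.39 ± 0.37 (SE, edgeR adjusted p = 2.94e-05) and ALAS2 by 3.30 ± 0.31 (SE, adjusted p = 3.84e-06).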
